A study of Mus musculus with 8 samples.

Results

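Hedgehog signalling was examined through 9 of the 23432 genes listed for each library. They were chosen by name for their place in the pathway, with earlier results of these data known. They are the ligand Shh, its receptor Ptch1, the ligand-binding inhibitor Hhip and the transducer Smo. The cytoplasmic regulators Sufu and Kif7 and the transcription factors Gli1, Gli2 and Gli3 complete the set. All 9 had counts in all 8 libraries and passed the filter on low counts in every comparison. The study asked what the histone acetyltransferase MOF and its partner Kansl1 do in the skin epithelium, and sequenced polyadenylated RNA from 4 groups of 2 libraries each.

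At E16.5, an embryonic stage at which hair follicles are forming, MOF cKO (conditional knockout) embryos carried floxed MOF alleles and Krt14-Cre, a recombinase that the Krt14 promoter drives in the skin epithelium, and were compared with control littermates. K14-H2BGFP+ epithelial cells, marked by a histone fused to green fluorescent protein, were sorted from their back skin. At P0.5, just after birth, Kansl1 cKO pups carried floxed Kansl1 alleles and the same Cre, and whole epidermis lifted off with Dispase was compared with that of control littermates. Mice were on a mixed C57Bl/6J and CD-1 background, and within skin this Cre acts in the epithelium, not in dermal or immune cells. Stage and isolation changed together between the experiments and cannot be told apart.

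Hedgehog ligands bind Ptch1, which releases Smo from repression. Smo then acts through the primary cilium, where Kif7 organises the tip, so that Gli factors are turned from repressors into activators. Sufu holds the Gli proteins and inhibits them. Gli1, Ptch1 and Hhip are themselves induced by the pathway and serve as its readouts in most tissues. In skin, Shh is made by the hair placode and hair germ and drives the downgrowth of the follicle, while dermal condensate cells beneath respond to it.

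The libraries held between 9108709 and 27561688 counts on genes, so that 1 count stood for between 0.0299 and 0.122 CPM (counts scaled by edgeR to a common library size, with TMM factors over all 8 libraries). The targeted genes were measured over their whole length, deleted exons included. Kat8, which encodes MOF, was at 13.3 and 13.6 CPM in E16.5 control and at 11.5 and 12.8 CPM in MOF cKO (log2 fold change -0.14, standard error 0.179, edgeR adjusted p = 0.554). Kansl1 was at 43.4 and 51.8 CPM in P0.5 control and at 33.4 and 34.6 CPM in Kansl1 cKO (log2 fold change -0.52, standard error 0.167, edgeR adjusted p = 0.242). Sex was not matched: Xist stood at 1394 CPM in E16.5 control replicate 1, against 9.21 to 11.1 CPM in the rest of the E16.5 libraries, and at 1.32 CPM in P0.5 control replicate 2, against 408 to 462 CPM in the rest of the P0.5 libraries. Scaling by library size alone in place of TMM moved the median over all genes in the MOF comparison from a log2 fold change of -0.02 to one of -0.32, and turned its calls from 1338 lower and 1395 higher into 2743 lower and 769 higher.

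The members lie on 8 chromosomes of mm10 (GENCODE M21). Shh is at chr5:28456815-28467256 on the minus strand, Hhip at chr8:79965851-80058006 (minus), Smo at chr6:29735503-29761365 (plus), Gli1 at chr10:127329882-127341974 (minus), Gli2 at chr1:118834132-119053619 (minus), Sufu at chr19:46396896-46488804 (plus) and Kif7 at chr7:79698098-79715720 (minus). Ptch1, at chr13:63508328-63573598 (minus), and Gli3, at chr13:15463235-15730026 (plus), share chromosome 13. Exons of Shh, Gli1 and Kif7 overlap those of a gene on the opposite strand that is also listed, over 446 bases with 9530036O11Rik, 62 bases with Arhgap9 and 51 bases with Ticrr. Exons of Kat8, the gene targeted in MOF cKO, overlap those of Prss8, also listed and on the opposite strand, over 122 bases. The library kit keeps strand, but the strand setting of the counting is not given in the sources used here. Reads in all those bases could therefore belong to either gene.

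RefSeq promoters (GRCm38.p6, 250 bases before to 50 after the start) were found for 7 members: Ptch1, Smo, Gli2, Gli3, Sufu, Hhip and Kif7. They were searched on both strands for the Gli binding consensus GACCACCCA, for the core CCACCC that it contains, and for the RFX half-site GTTGCC. Neither GACCACCCA, held by 0.253% of all 32851 promoters, nor GTTGCC, held by 12.5%, was found in the 7. The core CCACCC, held by 31.5% of all promoters, was found in Smo, Gli3 and Hhip at 1 place each and in Gli2 at 2. The 250 upstream bases of those of the 7 that were called lower in MOF cKO are shown 5′ to 3′ along the gene, at chr13:63565736-63565985 for Ptch1, chr8:80058009-80058258 for Hhip and chr7:79715708-79715957 for Kif7, all on the minus strand. Capitals mark the core, which starts 158 bases before the start of Hhip and is in neither other stretch. The start that RefSeq gives for Ptch1 lies 7863 bases inside the GENCODE span of the gene, so this stretch is upstream of an internal start and the outermost one was not searched.
Ptch1: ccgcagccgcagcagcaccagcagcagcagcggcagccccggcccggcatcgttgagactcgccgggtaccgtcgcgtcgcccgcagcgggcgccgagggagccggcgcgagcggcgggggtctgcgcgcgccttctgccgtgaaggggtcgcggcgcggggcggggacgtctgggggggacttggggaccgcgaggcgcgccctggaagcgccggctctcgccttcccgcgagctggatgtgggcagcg
Hhip: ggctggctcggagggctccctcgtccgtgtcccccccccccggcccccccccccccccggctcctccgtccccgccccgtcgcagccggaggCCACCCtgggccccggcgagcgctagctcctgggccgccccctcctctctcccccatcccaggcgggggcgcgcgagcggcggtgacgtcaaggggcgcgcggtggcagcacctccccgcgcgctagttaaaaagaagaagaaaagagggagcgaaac
Kif7: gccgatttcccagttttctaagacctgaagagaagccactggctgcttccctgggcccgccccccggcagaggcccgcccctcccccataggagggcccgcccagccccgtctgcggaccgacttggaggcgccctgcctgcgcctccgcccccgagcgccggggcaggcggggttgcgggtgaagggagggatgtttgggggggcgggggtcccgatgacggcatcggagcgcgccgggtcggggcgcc
G and C made up 78.4% of the Ptch1 stretch, 76.0% of the Hhip stretch and 74.4% of the Kif7 stretch, against a median of 52.4% over all promoters. The other members with a promoter ran from 54.0% in Sufu to 72.8% in Gli3.

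In E16.5 MOF cKO, the ligand, its receptor, its ligand-binding inhibitor and the ciliary kinesin were downregulated: Shh fell 6.01-fold, Ptch1 1.93-fold, Hhip 8.87-fold and Kif7 4.43-fold. Calls needed an adjusted p of at most 0.01 from edgeR's quasi-likelihood test together with a change of more than 1.5-fold. These 4 of 9 members were called lower and 0 higher, where 9.59% of the 13956 genes tested were called lower and 10.0% higher. Without control replicate 1, the E16.5 library with high Xist, these 4 were still called, at log2 fold changes of -2.97 for Shh, -1.07 for Ptch1, -3.45 for Hhip and -2.32 for Kif7. The median log2 fold change was -0.68 over the members and -0.02 over all genes.

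Shh was at 40.0 and 74.9 CPM in the E16.5 control libraries and at 9.17 and 9.91 CPM in MOF cKO, from 1334 and 2244 counts against 198 and 254. Both MOF cKO libraries lay far below both controls, although the controls differed between themselves. The log2 fold change was -2.59 (standard error 0.289, edgeR adjusted p = 0.000888), and it ran from -2.97 to -2.07 with any 1 library left out. The other Hedgehog ligands were scarce in these cells. Dhh, known from Schwann cells and gonads, had counts of 9 and 55 in the controls, with 36 and 75 in MOF cKO (log2 fold change 1.14, edgeR adjusted p = 0.326). Ihh, known from cartilage and gut, had counts of 18 and 15 in the controls, with 9 and 0 in MOF cKO (log2 fold change -1.35, edgeR adjusted p = 0.431).

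Among the proteins that bind the ligand, Ptch1 was at 353 and 420 CPM in control and at 195 and 204 CPM in MOF cKO. The groups did not overlap (log2 fold change -0.95, standard error 0.118, edgeR adjusted p = 0.00123). Hhip, which binds the ligand at the cell surface and keeps it from Ptch1, was at 2.52 and 4.11 CPM in control and at 0.556 and 0.195 CPM in MOF cKO. The MOF cKO values rest on 12 and 5 counts, against 84 and 123 in control. Its log2 fold change of -3.15 (standard error 0.675, edgeR adjusted p = 0.00998) was at the edge of the threshold. It was not called without control replicate 2 (-2.75, edgeR adjusted p = 0.0491), without MOF cKO replicate 2 (-2.56, edgeR adjusted p = 0.0149) or with RLE scaling (-3.12, edgeR adjusted p = 0.0102), and without MOF cKO replicate 1 it was at -4.06.

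Kif7, the kinesin-like protein of the ciliary tip, fell from 29.8 and 38.4 CPM to 5.23 and 10.1 CPM (log2 fold change -2.15, standard error 0.300, edgeR adjusted p = 0.00191). The higher MOF cKO library was still far below the lower control. Smo was at 158 and 174 CPM in control and at 167 and 168 CPM in MOF cKO, so both MOF cKO values lay between the controls. Its log2 fold change was 0.016 (standard error 0.103, edgeR adjusted p = 0.916) and became -0.29 when libraries were scaled by size alone and -0.0502 without control replicate 1. Sufu, the inhibitor that holds Gli proteins in the cytoplasm, was at 23.4 and 21.5 CPM in control and at 19.0 and 17.0 CPM in MOF cKO, which did not overlap but did not pass the test (log2 fold change -0.32, standard error 0.155, edgeR adjusted p = 0.140).

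**Figure D1:**
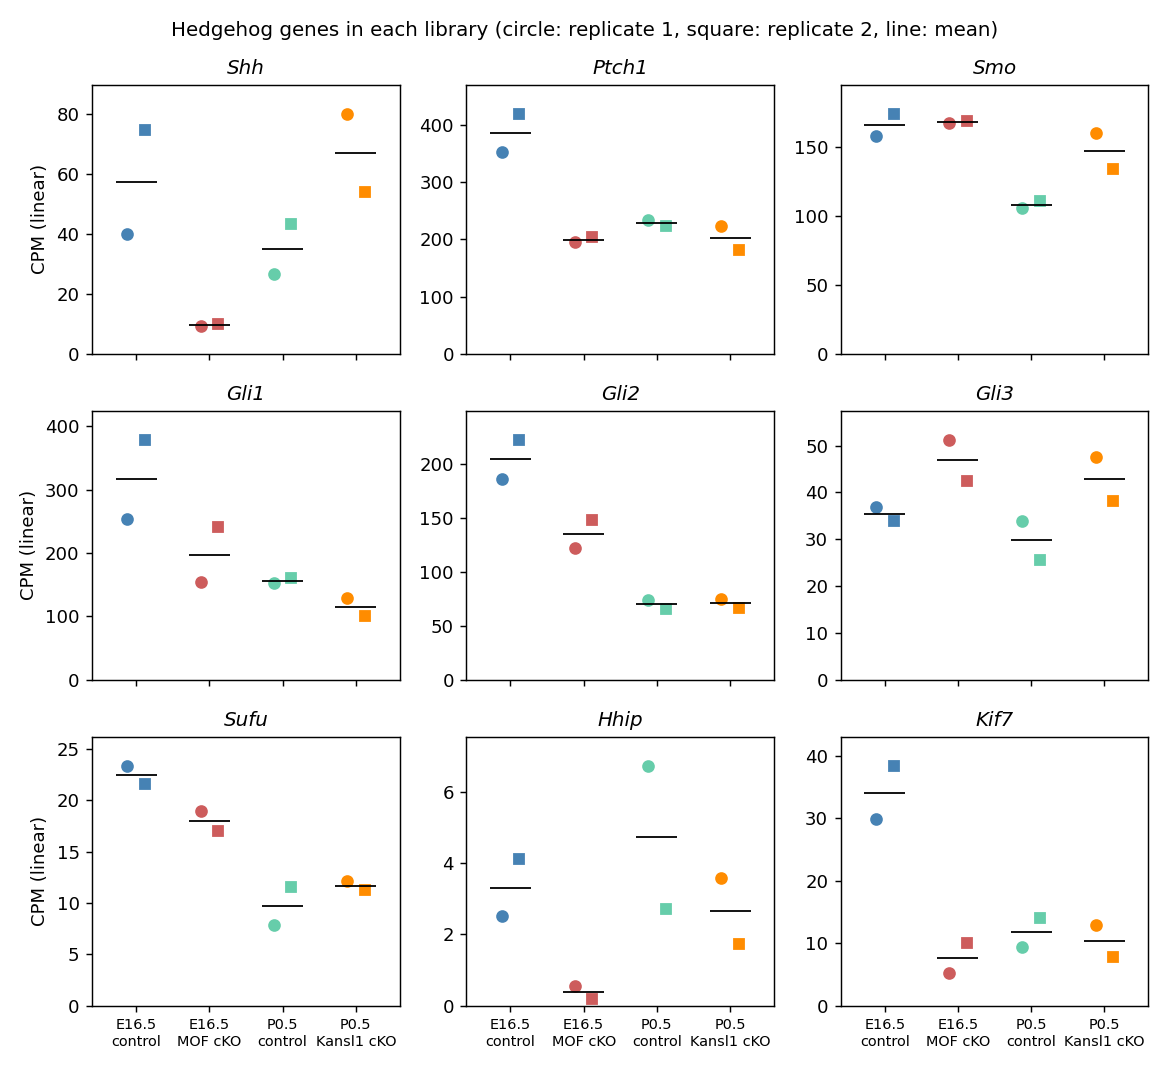
Level of each gene in the 8 libraries, in CPM on linear axes that start at 0, with 1 panel per gene, circles for replicate 1, squares for replicate 2 and a line at the mean of each group. Shh, Ptch1, Hhip and Kif7 sit lower in both MOF cKO libraries than in both E16.5 controls, Smo does not, and Shh sits higher in both Kansl1 cKO libraries, at 80.2 and 53.9 CPM, than in both P0.5 controls.

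None of the Gli factors passed both thresholds, and they moved in different directions. Gli1, an activator that the pathway induces, was at 254 and 379 CPM in control and at 154 and 240 CPM in MOF cKO. The higher MOF cKO library lay just under the lower control, and the log2 fold change was -0.68 (standard error 0.245, edgeR adjusted p = 0.0625). Gli2, the main activator at the start of signalling, was at 187 and 223 CPM in control and at 122 and 148 CPM in MOF cKO (log2 fold change -0.60, standard error 0.138, edgeR adjusted p = 0.0129). Both were called lower without control replicate 1, with log2 fold changes of -0.94 for Gli1 and -0.72 for Gli2, and without MOF cKO replicate 2, with -1.04 and -0.75. Without control replicate 2 they were at -0.37 and -0.47, and without MOF cKO replicate 1 at -0.40 and -0.47, with no call (edgeR adjusted p = 0.165 and 0.203 for Gli1, 0.0465 and 0.0477 for Gli2). Gli3, which acts mainly as a repressor, was at 37.0 and 34.0 CPM in control and at 51.3 and 42.4 CPM in MOF cKO, the one member with both MOF cKO libraries above both controls (log2 fold change 0.40, standard error 0.141, edgeR adjusted p = 0.0586). Counting without the test, 7 members had both MOF cKO libraries below both controls, as did 37.7% of all genes, and 1 had both above, as did 34.9%.

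The Gli factors were also set beside each other per length, as RPKM (CPM divided by the length in kilobases of the longest coding transcript). Of the RPKM of Gli1, Gli2 and Gli3 summed, Gli3 made up 4.75% and 3.17% in the E16.5 control libraries and 10.0% and 5.98% in MOF cKO. The Gli1 shares of 65.7% and 71.2% in control overlapped those of 60.6% and 68.3% in MOF cKO, and the Gli2 share was 29.6% and 25.6% against 29.4% and 25.7%. At P0.5 the Gli3 share was 7.85% and 5.96% in control and 11.9% and 11.8% in Kansl1 cKO, with Gli1 at 71.0% and 75.3% against 65.0% and 62.6%. In both experiments the cKO libraries held the larger Gli3 shares. These shares were not tested.

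**Figure D2:**
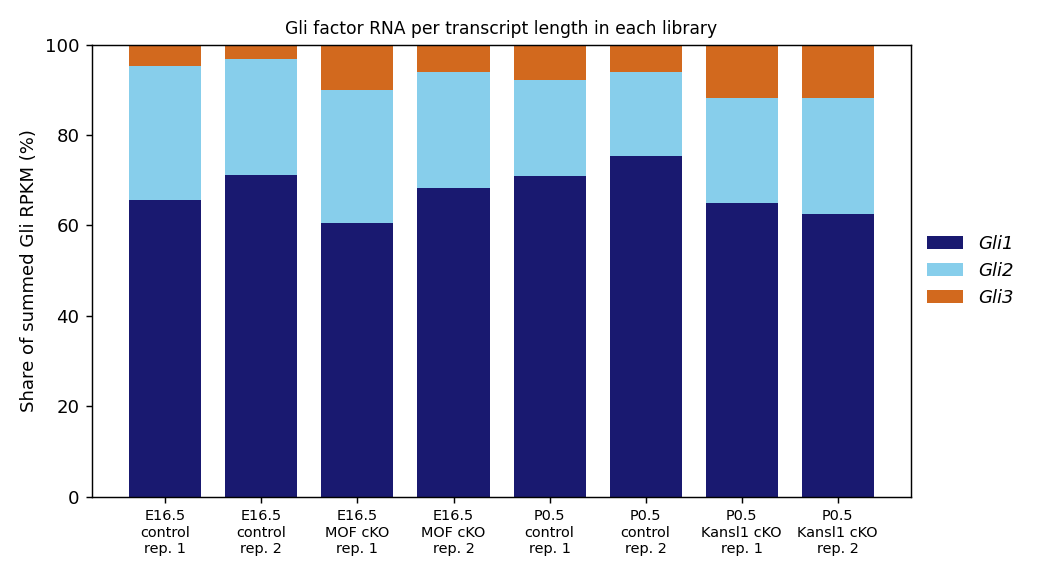
Share of Gli1, Gli2 and Gli3 in their summed RPKM, in percent, with 1 stacked bar for each of the 8 libraries. Gli1 takes the largest share everywhere, from 60.6% to 75.3%, and the Gli3 share is larger in the cKO libraries of each experiment than in their controls.

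In P0.5 Kansl1 cKO, no member was called in either direction, and Shh stood higher, not lower. Of the 13031 genes tested, 0.0% were called lower and 0.0% higher, with a minimum of 0.110 for the edgeR adjusted p. Before adjustment, edgeR gave 1077 genes lower and 968 higher at a p under 0.05. Gli1 was among the lower ones and Shh, Smo and Gli3 were among the higher ones. DESeq2 called 55 lower and 35 higher, with 0 members among them. The median log2 fold change was -0.01 over the members and 0.01 over all genes.

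Shh was at 26.5 and 43.2 CPM in P0.5 control and at 80.2 and 53.9 CPM in Kansl1 cKO, where both libraries lay above both controls. The log2 fold change was 0.90 (standard error 0.283, edgeR adjusted p = 0.235). Without Kansl1 cKO replicate 2 it was 1.16 and Shh was called, the only left-out library that gave this. That fit leaves 1 library in the group, and it also called many genes outside the members, unlike the main fit. Without P0.5 control replicate 2, the P0.5 library with low Xist, the Shh value was 1.27. It was 0.61 without P0.5 control replicate 1 and 0.56 without Kansl1 cKO replicate 1. Gli1 was at 152 and 161 CPM in control and at 129 and 100 CPM in Kansl1 cKO (log2 fold change -0.48, standard error 0.179, edgeR adjusted p = 0.279). Ptch1, at 234 and 224 CPM in control, was at 224 and 182 CPM in Kansl1 cKO, where Kansl1 cKO replicate 1 and control replicate 2 differed by less than 1 CPM (log2 fold change -0.21, standard error 0.175, edgeR adjusted p = 0.610). Shh stood higher and Gli1 lower in both Kansl1 cKO libraries, and neither difference passed the test.

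Smo was at 105 and 110 CPM in P0.5 control and at 160 and 134 CPM in Kansl1 cKO (log2 fold change 0.41, standard error 0.164, edgeR adjusted p = 0.303). Gli3 was at 33.9 and 25.7 CPM in control and at 47.5 and 38.1 CPM in Kansl1 cKO (log2 fold change 0.50, standard error 0.209, edgeR adjusted p = 0.318). With Shh they were the members whose Kansl1 cKO libraries both lay above both controls, 3 of 9, as did 26.0% of all genes. With the scaling of this experiment alone, Ptch1 and Gli1 had both libraries below, as did 22.7% of all genes. Gli2, Sufu, Hhip and Kif7 overlapped between the groups, with log2 fold changes of -0.01, 0.23, -0.80 and -0.21, of which those of Gli2, Sufu and Kif7 changed sign when 1 library was left out. Hhip ranged from 2.71 to 6.73 CPM in control and from 1.73 to 3.57 CPM in Kansl1 cKO on 20 to 67 counts (standard error 0.555, edgeR adjusted p = 0.524), and its log2 fold change ran from -1.48 to -0.0261 with 1 library left out.

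**Figure D3:**
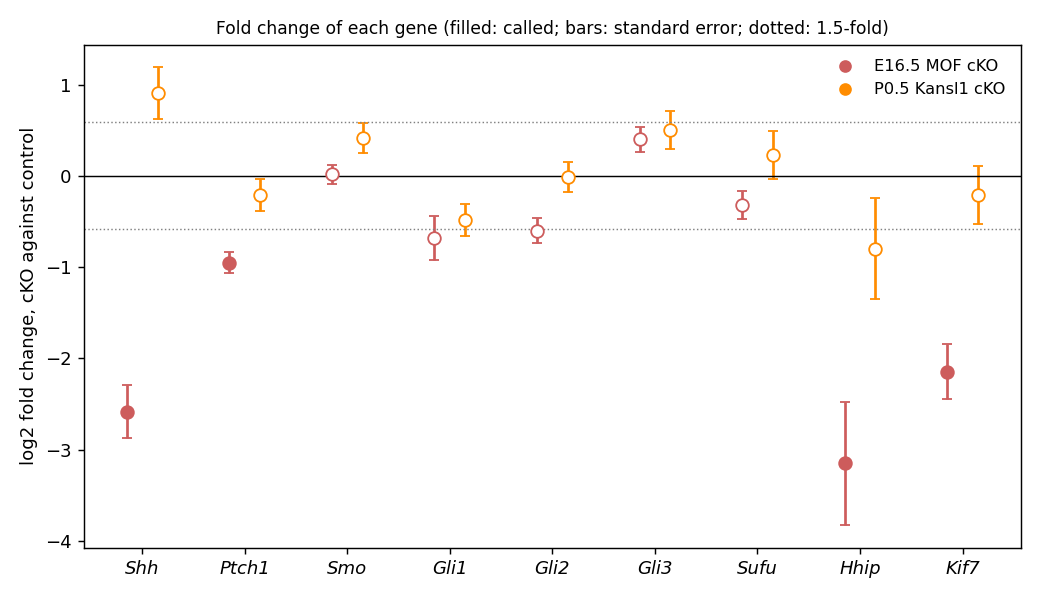
Log2 fold change of each gene in MOF cKO at E16.5 and in Kansl1 cKO at P0.5 against control, with bars for the standard error, filled points for called genes, and dotted lines at a 1.5-fold change. The 4 filled points are Shh, Ptch1, Hhip and Kif7 in MOF cKO, and Shh lies at -2.59 in MOF cKO and at 0.90 in Kansl1 cKO.

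The difference between the MOF and Kansl1 effects was itself tested in one fit over all 8 libraries, in which 1.17% of 14565 genes were called lower (a more negative effect in MOF cKO) and 1.76% higher. Shh alone of the members was called, with a difference of -3.52 on the log2 scale (standard error 0.474, edgeR adjusted p = 0.00416). The call was lost at adjusted p values of 0.0177 without MOF cKO replicate 1, 0.0149 without MOF cKO replicate 2 and 0.0159 without P0.5 control replicate 1, with differences from -3.47 to -3.23. Kif7, with a difference of -1.97 (edgeR adjusted p = 0.0336), and Ptch1, with -0.78 (edgeR adjusted p = 0.0395), were next. The Kif7 difference was called by DESeq2, at an adjusted p of 0.00297. For Hhip the difference was -2.36 with a standard error of 0.921 (edgeR adjusted p = 0.118). The estimates for Gli1, at -0.23, and Gli3, at -0.13, were smaller than their standard errors and changed sign when single libraries were left out. The experiments also differ in stage and isolation, which cannot be told apart from the targeted gene.

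In the control groups, 8 of 9 members had lower values at P0.5, in epidermis lifted with Dispase, than at E16.5, in sorted epithelial cells. Stage and isolation cannot be told apart in this comparison. The median log2 fold change was -0.64 over the members and -0.01 over all genes. Gli1, Gli2, Sufu and Kif7 were called lower, 4 of 9, where 17.6% of 13859 genes were called lower and 22.2% higher. Gli2 had the largest fall, from 187 and 223 CPM to 74.4 and 65.7 CPM (log2 fold change -1.43, standard error 0.159, edgeR adjusted p = 0.000201). Kif7 fell from 29.8 and 38.4 CPM to 9.42 and 14.0 CPM (log2 fold change -1.41, edgeR adjusted p = 0.00168). The calls for Gli1, at -0.90 (edgeR adjusted p = 0.0063), and Sufu, at -1.08 (edgeR adjusted p = 0.00569), depended on single libraries, while both values stayed below 0. Gli1 was not called without E16.5 control replicate 2 (-0.59), P0.5 control replicate 1 (-0.86) or P0.5 control replicate 2 (-0.92). Sufu was not called without E16.5 control replicate 1 (-1.02) or P0.5 control replicate 1 (-0.85). Shh was at -0.59 (edgeR adjusted p = 0.141) and was called lower without E16.5 control replicate 1, at -0.98. Its value was -0.0831 (edgeR adjusted p = 0.834) without E16.5 control replicate 2 and -0.30 (edgeR adjusted p = 0.481) without P0.5 control replicate 1. Ptch1 was at -0.64 (edgeR adjusted p = 0.0105) and Smo at -0.50 (edgeR adjusted p = 0.0145), just outside the thresholds, while Gli3 and Hhip were at -0.14 and 0.60 and changed sign with 1 library left out. Both MOF cKO and P0.5 control share the E16.5 control libraries, so the falls of Kif7 in these comparisons are set side by side and are not independent.

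Per length, Gli1 was the most abundant member in E16.5 control at 78.0 ± 21.8 RPKM (SD, n = 2), ahead of Ptch1, at 45.7 and 54.3 RPKM in its libraries, and Smo at 43.9 ± 2.98, whose libraries overlapped. Gli2 at 30.9 ± 3.84, Shh at 20.2 ± 8.68, Kif7 at 7.45 ± 1.33, Sufu at 4.96 ± 0.286, Gli3 at 4.34 ± 0.257 and Hhip at 0.365 ± 0.124 RPKM followed without overlap between neighbours. In MOF cKO, Shh came after Sufu, at 3.35 ± 0.185 RPKM, and Kif7 after Shh, at 1.67 ± 0.747, while Gli1 at 48.6 ± 15.1 and Smo at 44.4 ± 0.182 overlapped at the top. The order in P0.5 control was Gli1 at 38.6 ± 1.55, Ptch1 at 28.9 and 30.4 in its libraries, Smo at 28.6 ± 0.945, Shh at 12.3 ± 4.15, Gli2 at 10.6 ± 0.922, Gli3 at 3.64 ± 0.712, Kif7 at 2.56 ± 0.715, Sufu at 2.14 ± 0.581 and Hhip at 0.520 ± 0.313 RPKM. There Ptch1 overlapped Smo, Shh overlapped Gli2 and Kif7 overlapped Sufu. In Kansl1 cKO, Smo was first at 38.9 ± 4.79 RPKM, and Gli1 at 28.2 ± 4.95, Ptch1 at 26.3 ± 3.83 and Shh at 23.6 ± 6.52 overlapped in turn. Hhip was the lowest member in all 4 groups.

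The rest of the pathway was read from 4 further lists, 47 genes in all. Of the 39 tested in the MOF comparison, 14 were called lower and 1 higher, where 9.59% of all genes were called lower and 10.0% higher. Of 7 genes for other ligands and ligand processing, 6 were lower and 3 were called lower. Disp1, which releases the lipid-bearing ligand from the cell, was called and fell from 80.1 and 80.6 CPM to 39.8 and 40.4 CPM. The other calls were the secreted carriers Scube1 (log2 fold change -2.85) and Scube3 (-1.28). Scube1 fell from 47.1 and 73.2 CPM to 10.0 and 6.71 CPM. The median of this list was -1.28, and Scube3 was not called without control replicate 2 or without MOF cKO replicate 2, at -0.95 and -1.15. Of 4 receptors and co-receptors tested, Gpc3, a glypican that competes with Ptch1 for ligand, fell by 1.08 on the log2 scale, and the co-receptor Cdon fell by 0.60, with a list median of -0.64. The Cdon call was lost without control replicate 1 (-0.47), without MOF cKO replicate 1 (-0.59) and without MOF cKO replicate 2 (-0.62).

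Of 20 genes of signal relay and Gli processing, 14 were lower and 6 higher in MOF cKO, with a median of -0.62. Among them 8 were called lower and 0 higher. The 6 higher ones had log2 fold changes from 0.12 to 0.40. Evc and Evc2, which form a complex with Smo at the base of the cilium, fell by 2.39 and 1.79, and their tethers Efcab7 and Iqce fell by 1.98 and 1.33, all on the log2 scale. Evc was at 39.9 and 52.4 CPM in control and at 8.10 and 9.48 CPM in MOF cKO. Stk36, the mammalian Fused kinase, which is known for building motile cilia, dropped from 191 and 208 counts to 5 and 9 (log2 fold change -4.41, standard error 0.466, edgeR adjusted p = 0.000773). Genes that restrain the pathway were among the falls too: Btrc (log2 fold change -1.38) and Spop (-0.75), which mark Gli proteins for processing or breakdown, and the protein kinase A subunit Prkaca (-0.68). Prkaca was not called without control replicate 2 (-0.60) or without MOF cKO replicate 1 (-0.59).

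Of 15 response genes, 8 were tested in the MOF comparison, with a median of -0.34, and each direction had 1 call. Bcl2, a survival factor, was at 54.0 and 66.7 CPM in control and at 23.6 CPM in both MOF cKO libraries (log2 fold change -1.36, standard error 0.143, edgeR adjusted p = 0.000773). Nkx2-9, a homeodomain factor of the ventral neural tube, had 0 counts in both controls and 57 and 95 in MOF cKO, at least 33.4-fold higher against a floor of 3 counts per library. It had 0 counts in all P0.5 libraries. In Kansl1 cKO, 0 genes of these 4 lists were called by edgeR, with list medians of 0.28, 0.11, -0.06 and 0.27 in the order above. Evc2 had the most negative value there, at 6.71 and 4.75 CPM in Kansl1 cKO against a control mean of 14.0 CPM (log2 fold change -1.31, edgeR adjusted p = 0.197), followed by Evc (-0.97, edgeR adjusted p = 0.232). Between the controls, 11 of 38 list genes tested were called lower at P0.5 and 1, Mycn, higher, where 17.6% of all genes were called lower and 22.2% higher. Those lower were Disp1 and Scube1, the co-receptors Cdon and Boc, the relay genes Evc, Evc2, Iqce and Tulp3, and the response genes Bcl2, Jag2 and Sfrp1.

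**Figure D4:**
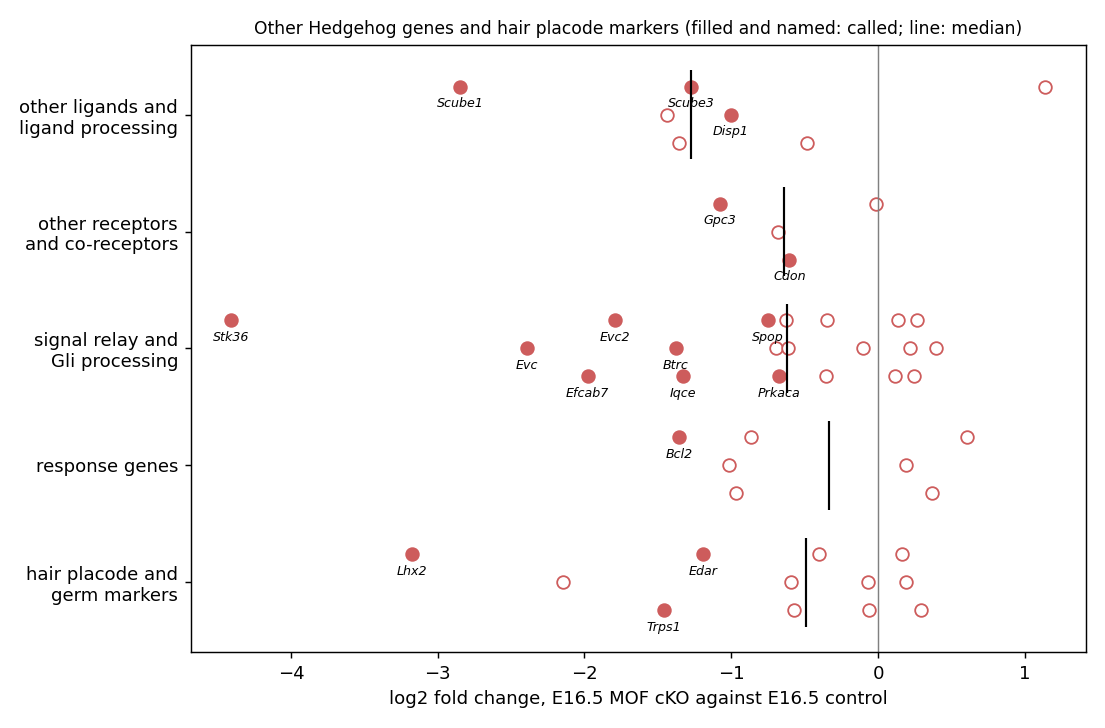
Log2 fold change in E16.5 MOF cKO against control of each tested gene of the 4 other Hedgehog lists and of the hair placode and germ markers, with filled, named points for called genes and a line at each list's median. Nkx2-9, at 0 counts in control, is counted in its list's median but not drawn, and Stk36 at -4.41 and Scube1 at -2.85 lie farthest to the left among the Hedgehog genes.

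Shh is a gene of the hair placode and germ, so markers of these and other cells were read beside it. In bulk RNA, fewer cells of a type and less RNA per cell cannot be told apart. Of 12 placode and germ markers, 9 were lower in MOF cKO. Lhx2, Edar and Trps1 were called lower, with log2 fold changes of -3.18, -1.19 and -1.46, where 9.59% of all genes were called lower. Sox9, Wnt10a and Sostdc1 were higher without a call, at 0.16, 0.19 and 0.30. The list's median was -0.49, and its summed level ran from 1070 to 1277 CPM in control and from 888 to 940 CPM in MOF cKO. In Kansl1 cKO, where Shh stood higher, all 12 of these markers had positive log2 fold changes and 0 were called by edgeR. The values ran from 0.0017 in Edar and 0.10 in Bmp2 up to 0.79 in Dkk4, so some barely differed from control. Their median was 0.32, against 0.01 over all genes. The sums ran from 570 to 733 CPM in control and from 739 to 908 CPM in Kansl1 cKO. From E16.5 to P0.5 in control, 11 of 12 were lower, 5 of them called, where 17.6% of all genes were called lower. None of the 12 was at 0 in any library, and their part in the Shh values was not tested.

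Markers of the epithelium that the labels name were present throughout, with summed levels from 30941 to 85347 CPM and none of 7 at 0. Krt1 and Krt10 were called higher in MOF cKO. Cells that could bring Ptch1, Gli1 or Hhip RNA from outside the epithelium were also traceable. Dermal fibroblast markers summed to between 843 and 1439 CPM in E16.5 control and between 1428 and 1988 CPM in MOF cKO, with 7 of 8 higher and 0 called, and to between 1179 and 1881 CPM in P0.5 control and between 809 and 1019 CPM in Kansl1 cKO, with 7 of 8 lower and 0 called. Dermal condensate markers, from cells that respond to Shh, summed to between 41.8 and 51.5 CPM in E16.5 control and between 18.5 and 29.1 CPM in MOF cKO, with 3 of 5 tested lower, Wif1 and Prdm1 called, and Crabp1 and Alx4 higher without a call (log2 fold changes 1.47 and 2.69), with Alx4 at 0 in control replicate 1 and Sox2 at 0 in MOF cKO replicate 1. At P0.5 they summed to between 66.3 and 111.5 CPM in control and between 54.6 and 99.7 CPM in Kansl1 cKO. The part of these cells in the Ptch1, Gli1 and Hhip values was not tested.

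Of the other cells, macrophage markers summed to between 17.5 and 40.7 CPM in E16.5 control and between 75.9 and 102.1 CPM in MOF cKO. There 4 of 7 were called higher. At P0.5 their sums were 136 and 154 CPM in control and 220 and 232 CPM in Kansl1 cKO. Of the 7, 6 were higher in Kansl1 cKO and 0 were called. Merkel cell markers summed to 36.8 and 36.9 CPM in E16.5 control and to 12.8 and 14.6 CPM in MOF cKO, with Krt8 called lower and Krt20 at 0 in MOF cKO replicate 1, and to between 7.85 and 12.1 CPM at P0.5. Endothelial markers summed to at most 20.6 CPM in any library, with Pecam1 called higher in MOF cKO. Melanocyte markers summed to between 11.1 and 40.6 CPM at E16.5. At P0.5 their sums were 343 and 363 CPM in control and 746 and 850 CPM in Kansl1 cKO, where 5 of 5 were higher. Muscle and Schwann cell markers summed to between 3.86 and 28.7 CPM at E16.5 and between 30.9 and 178 CPM at P0.5. In neither list was a gene called in either cKO. Ttn was at 0 in E16.5 control replicate 1, Emcn was at 0 in P0.5 control replicate 1 and both Kansl1 cKO libraries, Kdr was at 0 in Kansl1 cKO replicate 2, and Myh3 was at 0 in both Kansl1 cKO libraries. Their part in the members' values was not tested.

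Genes with a profile like that of a member were ranked among 12528 genes by the root mean square difference of log2 CPM from each experiment's mean over the 8 libraries. The nearest to Shh were Synpo2 at 0.222, Slc6a15 at 0.243, Tgfb3 at 0.256, 6330403K07Rik at 0.268 and Prss35 at 0.285, against a median of 1.01 over all genes. These genes were picked by likeness to Shh over the same libraries, so a direction shared with Shh follows from the choice. Their log2 fold changes in MOF cKO ran from -4.15 in Slc6a15, which was not called, to -2.29 in Tgfb3. In Kansl1 cKO they ran from 0.50 to 0.79, with none called. Among the members Kif7 was the closest to Shh, at rank 136 with 0.488. The nearest to Ptch1 were R3hdm4 at 0.0681, Foxo4 at 0.0722 and the glypican gene Gpc3 at 0.0783, against a median of 0.447, with Gli2 the closest member at rank 169. The nearest to Gli1 were Dtwd1 at 0.085, Zfp707 at 0.096 and Xylb at 0.114, against a median of 0.478, and Ptch1 was the closest member at rank 153. These values share libraries and depth and are descriptions.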

How the data were processed

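Polyadenylated RNA was sequenced as paired reads from 2 libraries in each of 4 groups. The authors deposited counts per gene, without normalization, made with HTSeq on mm10. The article names HISAT2 as aligner and the submitters' processing notes name TopHat2. Entries that name no gene held from 21.1% to 26.0% of the counts of a library and were left out. Groups came from the labels.

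The analysis ran in R 4.3.3. It used edgeR 4.0.16, built on limma 3.58.1, with filterByExpr, TMM factors, the quasi-likelihood test with no block, and Benjamini-Hochberg adjustment over all genes tested. Calls needed an adjusted p of at most 0.01 and a change of more than 1.5-fold, as in the study, which used DESeq2. Each comparison was fitted on its own 4 libraries, and the difference of effects on all 8. Printed CPM are scaled over all 8 libraries, so their ratios differ slightly from fitted fold changes. Transcript lengths came from GENCODE M21. Scripts were tested on simulated data.

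The members and lists were chosen with earlier results of these data known. Named genes were all members, Dhh, Ihh, called genes of the Hedgehog lists, the targeted genes, the nearest profiles and marker genes whose values stand beside a result. Xist was added after its values were seen. Evc2 and Evc were named for Kansl1 cKO by their values. Some genes of the lists are not reported here and were left out of every count.

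Alternatives were DESeq2 1.42.0, RLE and library-size scaling, every gene with at least 1 count, an adjusted p of 0.05, a replicate block, one fit over all libraries, and each library left out, which leaves a group with 1 library assumed to vary like the others. The article describes 2 pairs of samples in each experiment with littermate controls, and does not say which libraries form a pair. Nothing states that replicates came from separate litters. With 2 libraries a group the spread rests on few values, and edgeR estimates it for each gene with help from the other genes. The p values set a difference against that spread and do not cover variation beyond these libraries. Protein sequences were not analysed here.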

Additional observations from a re-analysis of the deposited data

Results flagged for a closer look

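Between the MOF and Kansl1 effects, 5 of the Hedgehog genes differed by the test of the difference itself (edgeR's quasi-likelihood test over all 8 libraries). They were 1 of 9 members and 4 of 40 other list genes tested, all called lower. Of all 14565 genes tested, 1.17% were called lower and 1.76% higher. Stage and isolation cannot be told apart from the targeted gene in this test. The difference of log2 fold changes, MOF cKO minus Kansl1 cKO, was -3.52 for Shh, -3.16 for Scube1, -1.26 for Disp1, -4.10 for Stk36 and -1.82 for Bcl2. Shh, Scube1, Disp1 and Bcl2 had negative values in MOF cKO and positive ones in Kansl1 cKO, and Stk36 had negative values in both. None of the Kansl1 cKO values was called. The calls of all 5 were lost with some single libraries left out: Scube1 without P0.5 control replicate 1 (edgeR adjusted p = 0.0102), Shh without 3 libraries in turn, Bcl2 and Stk36 without 6 in turn and Disp1 without 7 in turn, with adjusted p up to 0.0102, 0.0177, 0.0254, 0.021 and 0.0326 for Scube1, Shh, Bcl2, Stk36 and Disp1. Groups of 2 libraries are too small to look for single libraries that stand apart.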

How the results depend on the processing

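Of the alternatives for single genes, 545 values kept their direction and side of the threshold, 40 lost the call, 21 gained it and 16 changed sign. The members called lower in MOF cKO ran from 3 to 6 with 1 library left out. The members called higher in Kansl1 cKO ran from 0 to 1, those called lower between the controls from 2 to 4, and those called lower in the difference of effects from 0 to 1. For that difference there were 2 with DESeq2, 2 with every gene of at least 1 count and 3 at an adjusted p of 0.05. In the other Hedgehog lists, 1 gene was called lower in Kansl1 cKO with every gene of at least 1 count. Between the controls, 20 were called lower with library size alone, and those called higher numbered 3 with DESeq2, 2 with RLE factors, 0 with library size alone, 3 with every gene of at least 1 count, 4 at an adjusted p of 0.05 and from 1 to 2 with 1 library left out. Fewer genes were called over all genes in the difference of effects with edgeR (170 lower, 256 higher) than with DESeq2 (492 and 940), and library size alone gave 4340 lower and 2089 higher between the controls, with a median of -0.47. The cause was not tested.

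Sign changes were in values that were not called. In MOF cKO, Smo became -0.29 with library size alone. In Kansl1 cKO, Gli2 became 0.0012 with every gene of at least 1 count and 0.0203 in one fit over all libraries. With 1 library left out, the log2 fold change ran from -0.0502 to 0.0831 for Smo in MOF cKO. In Kansl1 cKO it ran from -0.14 to 0.0845 for Gli2, from -0.0071 to 0.51 for Sufu and from -0.65 to 0.0920 for Kif7. Between the controls it ran from -0.36 to 0.0633 for Gli3 and from -0.17 to 1.16 for Hhip, and in the difference of effects from -0.50 to 0.22 for Gli1 and from -0.34 to 0.13 for Gli3.

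With the replicate number as a block, 6 members were called lower in MOF cKO, Gli1 and Gli2 added, and 21 of the other Hedgehog genes, while calls over all genes rose to 2263 lower and 1903 higher. In Kansl1 cKO the block gave 0 calls over all genes. Libraries with the same number deviated together in the MOF experiment (correlation 0.206) and apart in the Kansl1 experiment (-0.202), and nothing says that a number marks a litter. A crossed pairing for Kansl1, chosen after seeing the data, gave 1 gene lower and 0 higher. Depth limits Hhip, Dhh and Ihh, whose counts fell to 5, 0 and 0 in single libraries.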
